A study of Schizosaccharomyces pombe with 6 samples.

Results

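The core histones and the variant H2A.Z of fission yeast, Schizosaccharomyces pombe, are encoded by 10 genes, which were taken by their standard names from the 6952 genes of the count table. They comprise hta1 and hta2 for H2A, htb1 for H2B, hht1, hht2 and hht3 for H3, hhf1, hhf2 and hhf3 for H4, and pht1 for H2A.Z. RNA was sequenced from 6 cultures on day 6 of chronological ageing, when the cells had stopped dividing. The aal1-pOE group, 3 cultures, overexpressed the lncRNA aal1 from a plasmid under P41nmt1, a promoter that thiamine represses, and the evc group, also 3 cultures, carried the vector without an insert. All 6 shared the 972h-/leu1-32 background and were aged in the minimal medium EMMG, and the labels call the replicates biological. The added aal1 RNA was thus made from a plasmid and a foreign promoter, outside its own locus.

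Histones package DNA into nucleosomes, in which H2A, H2B, H3 and H4 form an octamer around which the DNA is wrapped. Dividing cells make most of their core histones in S phase, when new DNA has to be packaged, and the fission yeast genes are known to be activated through the GATA-type factor Ams2 and held down outside S phase by the HIRA complex. The hht2-hhf2 pair is known as the one whose transcripts stay nearly constant through the cell cycle. H2A.Z replaces H2A in nucleosomes near the starts of genes, where the remodeller SWR1 deposits it independently of replication. The comparison addressed whether these transcripts differed in non-dividing cells when aal1 was overexpressed.

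The libraries held 5839863 to 13164975 counts, and aal1 was counted 54 to 141 times in the aal1-pOE libraries and 2 to 4 times in the evc libraries. The deepest library, aal1-pOE replicate 2, stood apart: its median tested gene was at 69.7 counts per 1000000 library counts (CPM) against 24.1 to 36.2 in the other 5. Among the controls, evc replicate 1 differed from the other evc libraries, with 6.89% of its counts in cytosolic ribosomal protein genes against 11.3% and 11.6%. The 10 histone genes together took 0.329%, 0.373% and 0.333% of all counts in replicates 1, 2 and 3 of aal1-pOE, against 0.299%, 0.242% and 0.234% in those of evc. After TMM scaling, which corrects library sizes for RNA composition, their summed level was 3062, 2077 and 3220 CPM against 3513, 3174 and 3039 CPM, so the mean was then lower in aal1-pOE. Values of 3 libraries are listed in this order throughout. Values between groups are given below as CPM after TMM scaling unless library totals are named. These are bulk cultures, in which fewer cells with a transcript and less of it per cell cannot be told apart.

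The genes lie in 4 divergent pairs, each sharing 1 stretch of intergenic DNA, and 2 single genes. The pairs are hhf1-hht1 on chromosome I, hhf2-hht2 and hht3-hhf3 on chromosome II and hta1-htb1 on chromosome III, while hta2 (chromosome I) and pht1 (chromosome II) stand alone. The stretches between the annotated starts of the 3 H3-H4 pairs were 132, 134 and 201 bases long in that order. Each held exactly 1 direct repeat of the box AACCCT, a sequence known from fission yeast histone promoters as a site for Ams2, and the same repeat lay upstream of hta2. These 4 repeats are shown with 8 bases on either side, because they are the feature that these 7 core histone genes have in common. Each is written 5′ to 3′ on the strand that reads AACCCT, with the repeat in capitals, from the RefSeq genome ASM294v3.
hhf1-hht1, chrI:4699644-4699671, plus strand: tgcatcaaAACCCTAACCCTgcttttga
hhf2-hht2, chrII:1365052-1365079, minus strand: tcaatcacAACCCTAACCCTgatttaag
hht3-hhf3, chrII:3529619-3529646, plus strand: ttgatcacAACCCTAACCCTttaattaa
hta2, chrI:4053363-4053390, minus strand: tccatcaaAACCCTAACCCTgtatattg

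The alignment extended beyond the repeat. All 4 carried ATCA followed by 1 further base directly before it, so that ATCANAACCCTAACCCT, where N is any base, was common to them. In windows from 250 bases before to 50 bases after the start of the 5120 protein-coding genes searched, and on either strand, this 17-letter motif was found for 8 genes, or 0.156%. These were the 7 core histone genes, from whose repeats the motif was read, and bdf2, which encodes a bromodomain protein. The tandem box alone was found in 18 windows (0.352%), and at least 1 single AACCCT in 496 windows (9.69%), counts that include each other because the single box lies within the tandem and the tandem within the longer motif. Genes of a divergent pair share their windows in large part, so the 7 core histone windows hold only 4 separate repeats. The window of pht1 held 0 boxes, and so did that of cnp1, which encodes the centromeric H3 variant. The repeat lay between 47 and 128 bases upstream of the gene starts, nearest for hht2 and farthest for hhf3.

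**Figure D1:**
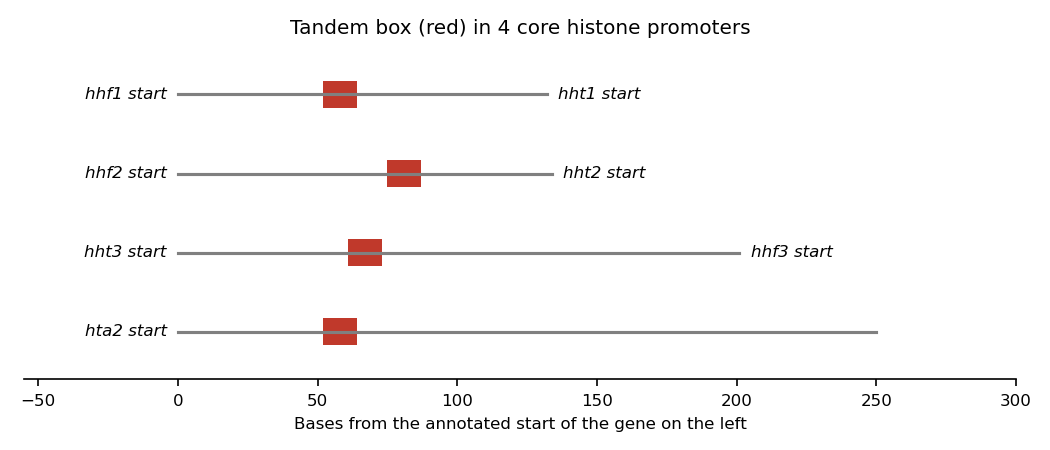
Position of the tandem AACCCT box in the 3 intergenic stretches between divergent H3 and H4 genes and in the 250 bases upstream of hta2. The x axis gives bases from the annotated start of the gene named on the left, grey lines span the stretch up to the start of the gene on the right, and red blocks mark the 12 bases of the repeat. The repeat is 47 bases from the start of hht2 and 128 bases from that of hhf3.

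The hhf1-hht1 stretch, chrI:4699600-4699731, is printed whole because the counts of its genes diverged between the groups, as their ratio shows further down. It is written on the plus strand, from the start of hhf1 on its left to that of hht1 on its right, with the repeat in capitals.
hhf1-hht1: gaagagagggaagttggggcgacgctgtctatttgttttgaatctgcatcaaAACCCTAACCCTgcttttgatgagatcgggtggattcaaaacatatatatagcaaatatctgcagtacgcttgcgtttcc
The hht3-hhf3 stretch, chrII:3529566-3529766, is printed because the same held for its genes and because it is partly covered by a non-coding transcript. It is written on the plus strand, with the start of hht3 on its left and that of hhf3 on its right.
hht3-hhf3: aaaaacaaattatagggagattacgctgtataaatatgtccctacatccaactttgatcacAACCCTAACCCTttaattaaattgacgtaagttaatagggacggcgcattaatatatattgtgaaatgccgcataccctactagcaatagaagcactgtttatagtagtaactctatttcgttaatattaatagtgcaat

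The coding copies resemble each other closely. The 3 H3 genes encode proteins that differ at 0 of 136 residues, although their coding sequences were 88.3% to 92.7% identical. The 3 H4 genes differ at 0 of 103 residues, with 91.3% to 93.3% identical coding bases. The H2A proteins of hta1 and hta2 differ at 3 residues, and 86.5% of their coding bases were identical. Even so, 93.1% to 100% of all 33-base windows of each gene, the length left of a read after the index and the clipped bases were removed, occurred once in the genome, so that most reads could be assigned to 1 copy. The lowest shares belonged to hhf3 (93.1%), hht1 (94.0%) and hhf2 (94.8%), and counts of these genes may be too low by the reads that fit several copies.

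Levels in the control cells spanned a wide range. Per kilobase of annotated gene and with library totals, hht2 was the most abundant at 1453 ± 156 CPM per kb in evc (SD, n = 3). It was followed by hht3 at 455 ± 70.3, htb1 at 455 ± 78.1 and hhf2 at 399 ± 34.4 CPM per kb, whose ranges over the evc libraries overlapped. A lower set comprised hht1 at 82.1 ± 26.0, hhf1 at 80.5 ± 20.4, hta2 at 79.8 ± 9.24 and hta1 at 62.2 ± 10.6 CPM per kb, and within it the ranges of neighbours in this order overlapped except those of hta2 and hta1. Then came hhf3 at 35.5 ± 4.37 CPM per kb, and pht1 was the lowest at 8.46 ± 3.44. In rank among 5784 tested genes of known length, hht2 stood at percentiles 98.2 to 99.0 in evc and 99.2 to 99.3 in aal1-pOE, whereas pht1 stood at 31.2 to 44.4 and 46.0 to 49.8.

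The order in aal1-pOE cells began and ended with the same genes. On the same scale, hht2 was at 1444 ± 212, htb1 at 804 ± 98.6, hht3 at 551 ± 55.1 and hhf2 at 411 ± 22.3 CPM per kb (SD, n = 3). They were followed by hht1 at 197 ± 5.19, hta2 at 143 ± 46.0, hta1 at 140 ± 69.1, hhf3 at 117 ± 111 and hhf1 at 111 ± 42.0 CPM per kb, and by pht1 at 25.5 ± 11.7. Summed by class, transcripts of the 3 H3 genes came to 1792 to 2270 CPM per kb in evc, against 467 to 581 for H4, 406 to 545 for H2B and 124 to 163 for H2A. In aal1-pOE the same sums were 2018 to 2322 for H3, 557 to 792 for H4, 739 to 917 for H2B and 201 to 414 for H2A. The H2B and H2A sums were higher in every aal1-pOE library than in any evc library on this scale, and the H3 sums of the groups overlapped. With library totals the median tested gene was higher in every aal1-pOE library too, at 34.9 to 69.7 CPM against 24.1 to 27.4 CPM in evc. After TMM scaling the H3 sums were 1514, 824 and 1626 CPM in aal1-pOE against 1929, 1796 and 1674 CPM in evc, and the H4 sums 413, 330 and 424 against 540, 483 and 508 CPM, both below evc in every aal1-pOE library. On that scale the H2B sums overlapped, and the H2A sums, at 208, 222 and 185 against 181, 173 and 152 CPM, stayed above evc. Of all tested genes on that scale, 18.4% were above and 19.1% below evc in every aal1-pOE library.

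No histone gene passed the test between the groups. Of the 10 genes, 0 were called lower and 0 higher by the edgeR quasi-likelihood test at an adjusted p of at most 0.05, where 4.64% of the 5823 tested genes were called lower and 1.36% higher. At an unadjusted p below 0.05, 2 members were higher (hht1 and pht1) and 0 were lower, where 14.6% and 12.5% of all tested genes were, respectively. The likelihood ratio test of edgeR, DESeq2 and limma-voom also called 0 members in either direction. The median log2 fold change of the 10 genes was 0.16, against 0.08 over all tested genes, and 6 of the 10 were positive. In 2 of the 10 all aal1-pOE libraries lay above all evc libraries and in 2 they lay below, which among all tested genes was so for 18.4% and 19.1%.

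**Figure D2:**
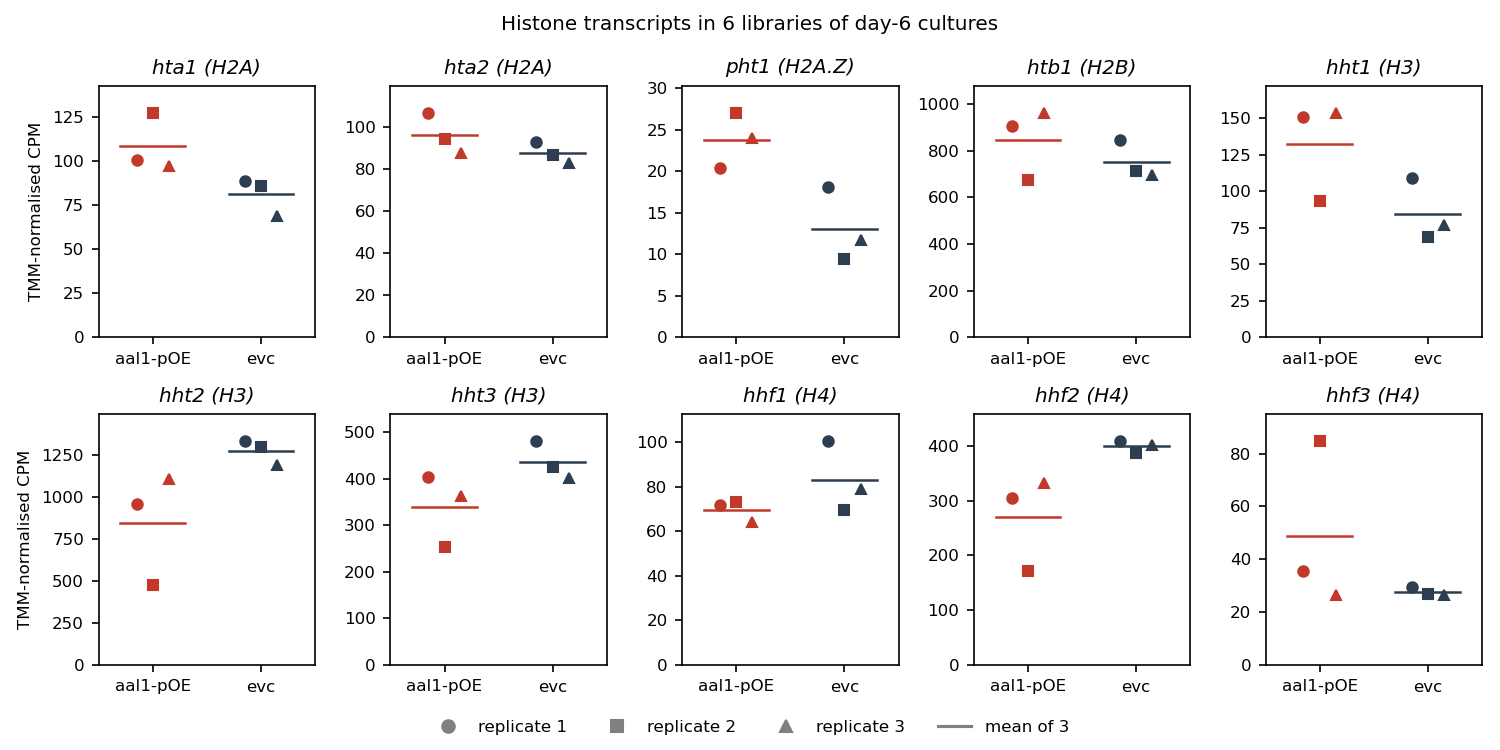
Level of each histone transcript in every library. The y axes give TMM-normalised CPM from 0, symbols stand for replicates 1 to 3 of each group, and lines mark the mean of 3. The groups separate for hta1 and pht1, with aal1-pOE above, and for hht2 and hhf2, with aal1-pOE below. In hhf3 a single aal1-pOE library, at 84.9 CPM, stands far above the others.

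Of the H2A genes, hta1 was at 101, 127 and 96.9 CPM in aal1-pOE against 88.4, 85.7 and 69.0 CPM in evc. All aal1-pOE libraries were above all evc libraries, and the log2 fold change was 0.42 ± 0.21 (SE; 95% interval -0.06 to 0.90; adjusted p = 0.230, edgeR). The other H2A gene, hta2, was at 107, 94.2 and 87.6 CPM in aal1-pOE against 92.8, 86.8 and 82.7 CPM in evc. These groups overlapped, with a log2 fold change of 0.14 ± 0.19 (interval -0.30 to 0.57). Of the counts of both H2A genes, hta2 took 51.4%, 42.5% and 47.5% in aal1-pOE against 51.2%, 50.3% and 54.5% in evc. The difference of the means was -4.87 percentage points (exact permutation test, two-sided, p = 0.3, adjusted over 4 such shares p = 0.3).

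The H2A.Z gene pht1 had the largest log2 fold change of the 10 members after TMM scaling, and few reads. Its counts were 193, 638 and 152 in aal1-pOE against 107, 42 and 58 in evc, which came to 20.4, 27.0 and 24.0 CPM against 18.1, 9.42 and 11.7 CPM. All aal1-pOE libraries were above the evc libraries, evc replicate 1 being the closest, and the log2 fold change was 0.86 ± 0.34 (95% interval 0.11 to 1.62; unadjusted p = 0.0293, adjusted p = 0.141, edgeR). Relative to the sum of H2A and H2A.Z counts, pht1 made up 8.95%, 10.9% and 11.5% in aal1-pOE against 9.06%, 5.18% and 7.14% in evc. The share in aal1-pOE replicate 1 was below that in evc replicate 1, and the difference of 3.31 percentage points had an exact two-sided permutation p of 0.2 (adjusted p = 0.267).

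H2B comes from htb1 alone, the partner of hta1. Its level was 907, 674 and 963 CPM in aal1-pOE against 846, 714 and 695 CPM in evc. The groups overlapped, with aal1-pOE replicate 2 the lowest of the 6 libraries, and the log2 fold change was 0.17 ± 0.29 (95% interval -0.49 to 0.84; adjusted p = 0.708, edgeR).

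The fold changes of the H3 genes differed in sign. For hht1, the level was 151, 93.4 and 154 CPM in aal1-pOE against 109, 68.4 and 76.9 CPM in evc, so that aal1-pOE replicate 2 fell below evc replicate 1. The log2 fold change was 0.64 ± 0.27 (95% interval 0.03 to 1.26; unadjusted p = 0.0422, adjusted p = 0.168, edgeR). For hht2, the most abundant member, the level was 959, 476 and 1109 CPM in aal1-pOE against 1338, 1301 and 1195 CPM in evc. All aal1-pOE libraries were below evc, replicate 2 by far the most, and the log2 fold change was -0.59 ± 0.37 (interval -1.43 to 0.25; adjusted p = 0.316, edgeR). For hht3, 405, 255 and 363 CPM in aal1-pOE stood against 482, 426 and 402 CPM in evc, which overlapped by 1 library (log2 fold change -0.36 ± 0.27, interval -0.97 to 0.25).

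So did those of the H4 genes. For hhf2, 305, 172 and 333 CPM in aal1-pOE stood against 409, 386 and 402 CPM in evc. All aal1-pOE libraries were below evc, and the log2 fold change was -0.56 ± 0.29 (95% interval -1.22 to 0.10; adjusted p = 0.239, edgeR). For hhf1, 71.9, 73.2 and 64.3 CPM overlapped with 101, 69.8 and 79.1 CPM in evc (log2 fold change -0.25 ± 0.21, interval -0.73 to 0.22). For hhf3, the level was 35.7, 84.9 and 26.3 CPM in aal1-pOE against 29.7, 26.9 and 26.6 CPM in evc. Its high value rested on aal1-pOE replicate 2 alone: the log2 fold change was 0.83 ± 0.40 (interval -0.08 to 1.73) with that library and 0.18 without it.

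The low values of hht2 and hhf2 rested in large part on the same library. Without aal1-pOE replicate 2 their log2 fold changes were -0.29 and -0.31, and the part of the high median level of that library in these values was not tested. Without it, hht1 was called higher (log2 fold change 0.86, adjusted p = 0.0377, edgeR), 1 of 10 members against 4.42% of all genes tested in that fit. Without both that library and evc replicate 1, the libraries that stood apart, 3 members were called higher, namely htb1 (0.41, adjusted p = 0.00722), hht1 (1.07, adjusted p = 0.000115) and pht1 (1.06, adjusted p = 0.00789), against 19.4% of all genes. In that fit hhf2 was called lower (-0.30, adjusted p = 0.0396), against 20.2% of all genes. It left 2 libraries in each group, and the libraries were chosen for standing apart in these data.

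The scaling between libraries changed the direction for 3 members. With library totals in place of TMM factors, the median log2 fold change of all tested genes moved from 0.08 to 0.80 and that of the members from 0.16 to 0.83, and 9 of the 10 were then positive. The values were 0.28 for hht3, 0.46 for hhf1 and 0.04 for hhf2, which had been negative with TMM, and -0.01 for hht2. Called higher on that scale were htb1 (0.82, adjusted p = 0.0468, edgeR) and hht1 (1.26, adjusted p = 0.0363), 2 of 10 against 8.88% of all genes. Relative to the median of all genes, the values of hht2, hht3, hhf1 and hhf2 were lower, and those of the other 6 members higher, under both scalings. The change of scaling moved all 10 members and the median upward, so these are not separate checks.

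**Figure D3:**
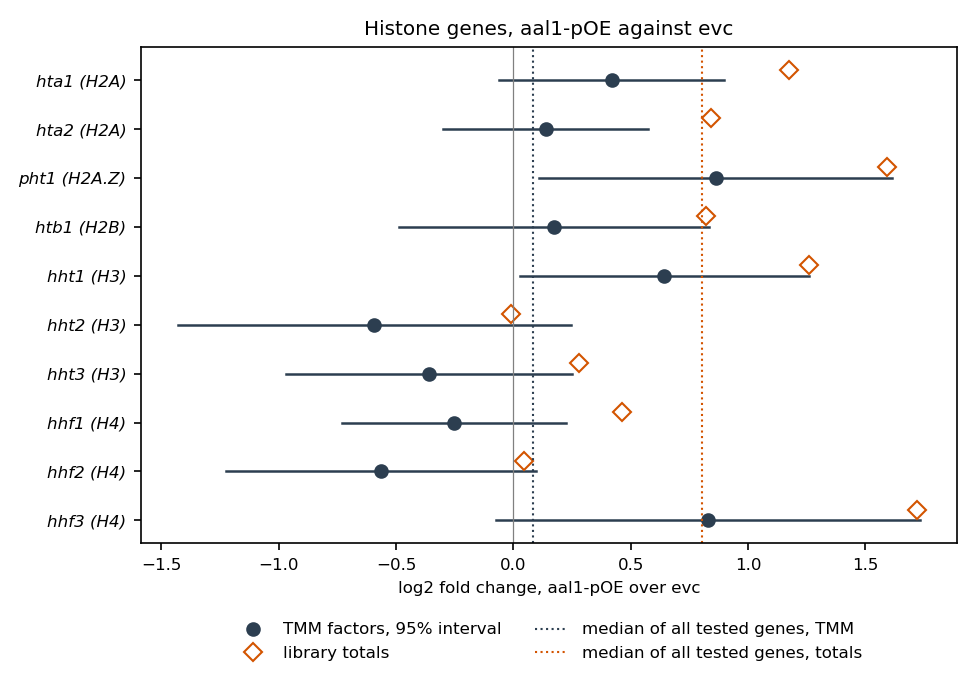
Log2 fold change of each histone gene, aal1-pOE over evc, on the x axis. Filled circles with lines are the values and 95% intervals after TMM scaling, open diamonds are the values with library totals, and dotted vertical lines are the medians of all tested genes at 0.08 and 0.80. The genes hht2, hht3, hhf1 and hhf2 lie left of the median under either scaling, and intervals exclude 0 only for hht1 and pht1, before adjustment.

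Shares within a class need no scaling between libraries. Of all H3 counts, hht2 took 63.3%, 57.8% and 68.2% in aal1-pOE against 69.4%, 72.5% and 71.4% in evc. All aal1-pOE libraries were below evc, with a difference of the means of -7.97 percentage points and an exact two-sided permutation p of 0.1, the smallest that 3 against 3 libraries allow (adjusted p = 0.267). The hht1 share, which was not among the shares tested and was looked at after the values were seen, was 9.95%, 11.3% and 9.46% in aal1-pOE against 5.65%, 3.81% and 4.59% in evc. All aal1-pOE libraries were above evc, and the means were 10.3 ± 0.975% and 4.68 ± 0.923% (SD, n = 3). The difference of 5.57 percentage points ranged from 5.02 to 6.05 when each library was left out in turn.

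Of all H4 counts, hhf2 took 73.9%, 52.1% and 78.6% in aal1-pOE against 75.8%, 80.0% and 79.2% in evc. The groups overlapped, the difference was -10.1 percentage points (exact permutation p = 0.2, adjusted p = 0.267), and it was -2.06 without aal1-pOE replicate 2. The hhf3 share was 8.66%, 25.7% and 6.22% in aal1-pOE against 5.50%, 5.58% and 5.23% in evc, above evc in all aal1-pOE libraries but close to it in replicate 3. This share too was looked at after the values were seen, and its difference of 8.09 percentage points was 2.0 without aal1-pOE replicate 2.

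**Figure D4:**
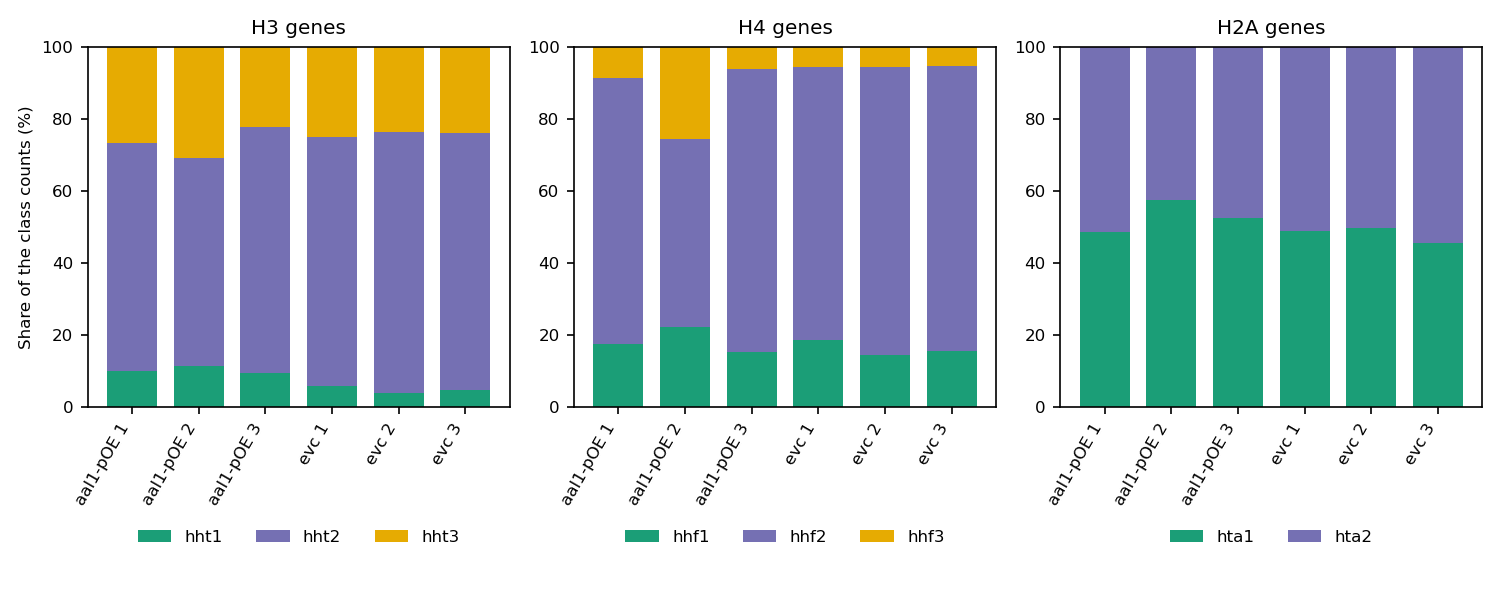
Share of each gene in the counts of its class, in percent, for H3, H4 and H2A in each of the 6 libraries. The hht1 band is 9.46% to 11.3% of H3 counts in aal1-pOE against 3.81% to 5.65% in evc, and hhf3 reaches 25.7% of H4 counts in aal1-pOE replicate 2 only.

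The genes of a divergent pair can be compared within a library. For the pair hht1 and hhf1, which share the first stretch printed above, the ratio of counts was 2.10, 1.28 and 2.39 in aal1-pOE against 1.08, 0.981 and 0.972 in evc. Every aal1-pOE library was above evc. For hht2 and hhf2 the ratio was 3.14, 2.76 and 3.33 in aal1-pOE against 3.27, 3.37 and 2.97 in evc, and the groups overlapped. For htb1 and hta1 it was 9.0, 5.30 and 9.93 in aal1-pOE against 9.57, 8.33 and 10.1 in evc, again overlapping. For hht3 and hhf3 the ratio was 11.3, 3.0 and 13.8 in aal1-pOE against 16.2, 15.8 and 15.1 in evc, below evc in every aal1-pOE library. The difference of the mean hht3:hhf3 ratios was -6.36 with all libraries and -3.18 without aal1-pOE replicate 2, and that of hht1:hhf1 was 0.91 and 1.23. The ratios were compared after the values were seen and were not tested.

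**Figure D5:**
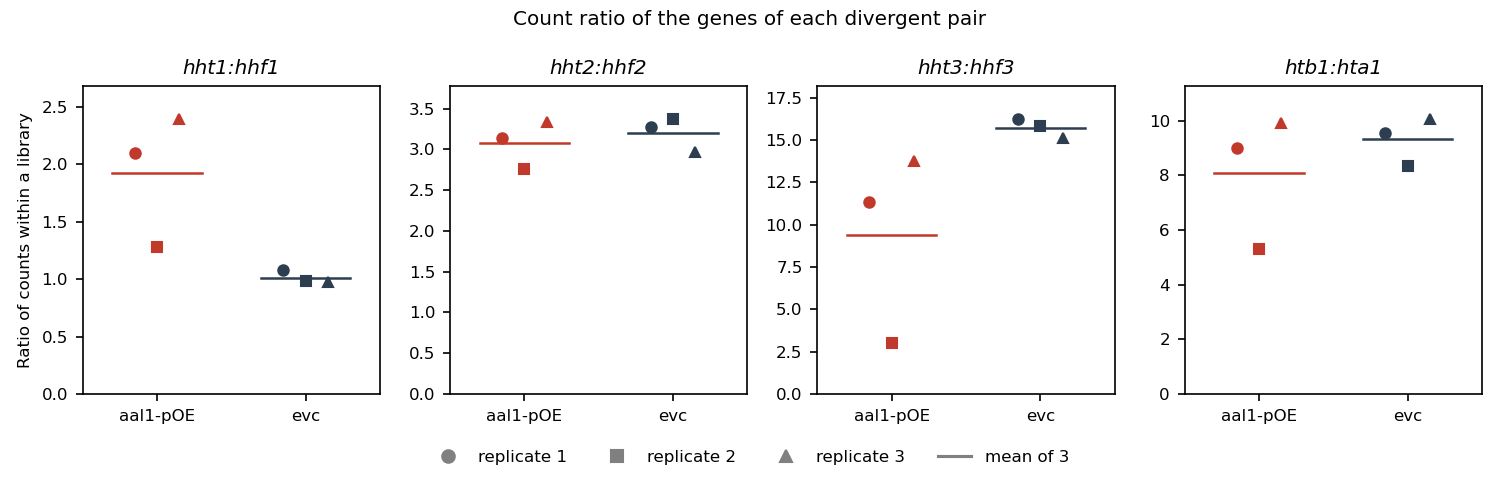
Ratio of counts of the genes of each divergent pair within a library, on axes from 0. Symbols stand for replicates 1 to 3 and lines for the mean of 3. The hht1:hhf1 ratio is 1.28 to 2.39 in aal1-pOE against 0.972 to 1.08 in evc, hht3:hhf3 is lower in aal1-pOE, and the other pairs overlap.

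A non-coding transcript on the opposite strand set hhf3 apart from the other H4 genes. The lncRNA SPNCRNA.1611 is annotated at chrII:3529599-3530978 on the minus strand and covers all 622 bases of hhf3 (chrII:3529767-3530388, plus strand) together with most of the stretch to hht3, the box included. Its counts were 23, 58 and 12 in aal1-pOE against 39, 884 and 669 in evc. In CPM this was 2.43, 2.46 and 1.89 against 6.58, 198 and 135, so that evc replicate 1 stood nearer to the aal1-pOE libraries than to the other evc libraries. SPNCRNA.1611 was called lower in aal1-pOE (log2 fold change -5.61 ± 1.01 SE, adjusted p = 0.0121, edgeR), but not without evc replicate 2 (adjusted p = 0.0533) or with limma-voom (-4.46, adjusted p = 0.186). The level of hhf3 in the same evc libraries was 26.6 to 29.7 CPM, and any part of the antisense RNA in the hhf3 values was not tested. The libraries kept strand, and it was singled out after its values were seen.

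The other histone genes with annotated antisense neighbours showed less. The lncRNA SPNCRNA.1194 lies opposite the whole of hta1 and overlaps htb1 on the same strand by 6 bases. Its level was 5.18, 14.9 and 7.25 CPM in aal1-pOE against 14, 19.3 and 14.7 CPM in evc, and SPNCRNA.1194 was not called (log2 fold change -0.79 ± 0.45). The coding genes sec5 and rav1 overlap 258 bases of htb1 and 46 bases of hht3 on the opposite strand. On the same strand SPNCRNA.1432 overlaps 79 bases of hhf2, where reads of these genes cannot be told apart.

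Across the 6 libraries the members fell into unlike patterns. With log2 TMM CPM, Pearson's r was 0.99 between hht2 and hhf2, 0.94 between hht2 and hht3, 0.90 between htb1 and hht1 and -0.97 between hht2 and hhf3. These values are a description over 6 points that share libraries, and aal1-pOE replicate 2, where hht2 was lowest and hhf3 highest, weighs heavily in them. The 5 genes most like the mean of the 9 core histones, out of 4583 genes that averaged 10 CPM or more, were mlg1 (r = 0.99), siw14 (0.98), sfp1 (0.98), swr1 (0.98) and ste13 (0.98). These 5 were picked as the highest of 4583 values of r over 6 libraries, so their r is no test of likeness. The mean also joins members of opposite pattern, such as hht2 and hhf3, and leaves out pht1. The log2 fold changes of the 5 genes lay near 0, from -0.08 for sfp1 to 0.11 for ste13. That of swr1, which encodes the catalytic subunit of the remodeller that deposits H2A.Z, was 0.09, and a link to the histone values was not tested.

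Factors that act on histone genes and histones were mostly not called, like 5474 of the 5823 tested genes. Of 6 regulators of histone genes, 0 were called in either direction, against 4.64% of all tested genes called lower and 1.36% higher. Their median log2 fold change was 0.21, against 0.08 over all tested genes. In the HIRA complex, hip3 had the largest value, with 157, 212 and 195 CPM in aal1-pOE against 116, 40.2 and 43.5 CPM in evc (log2 fold change 1.5 ± 0.40, adjusted p = 0.0582, edgeR), with evc replicate 1 again the nearest. It passed the threshold in 7 of 16 alternatives, among them the edgeR likelihood ratio test (adjusted p = 0.00605), DESeq2 (0.00717) and the fit without evc replicate 1 (0.00418). The HIRA proteins slm9 and hip4 had values of 0.62 ± 0.20 and 0.80 ± 0.26. In both, all aal1-pOE libraries were above evc, as in 18.4% of all tested genes. The other 3 regulators had negative values, which were -0.62 ± 0.26 for the HIRA gene hip1 (unadjusted p = 0.0391, adjusted p = 0.163, edgeR), -0.56 ± 0.45 for ams2 and -0.20 ± 0.29 for teb1, and the median of the list went from 0.14 to 0.32 when single libraries were left out.

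Of all tested genes, 4.64% were called lower and 1.36% higher, the shares beside which the next 3 lists are read. Of 11 histone chaperones, 0 were called, with a median of 0.42, which was 0.10 without aal1-pOE replicate 2. The largest was rtt106 at 1.99 ± 0.90, a chaperone of H3 and H4, which was at 10.3 CPM in aal1-pOE replicate 2 and at 0.675 to 1.80 CPM elsewhere. The CAF-1 subunit gene pcf2 had a like pattern, at 24.5 CPM in that library and 2.02 to 3.59 CPM in the others, and spt16 of the FACT complex had a log2 fold change of 0.65 ± 0.30. Of 20 subunits of the remodellers SWR1 and INO80, 0 were called, with a median of 0.10, which turned to -0.019 without aal1-pOE replicate 3 and lay between 0.038 and 0.14 with any other single library left out. Among them, the INO80 gene arp8 had a value of 2.05 ± 0.56 (adjusted p = 0.0617, edgeR) and passed the threshold in 7 of 15 alternatives. It was at 36.15 CPM in aal1-pOE replicate 2 against 3.82 to 13.6 CPM elsewhere. Without that library its value was 1.27 (adjusted p = 0.0496, edgeR). The INO80 gene arp5 had a value of 0.46 ± 0.19 and the SWR1 gene swc2 one of -0.80 ± 0.30. Of 7 tested genes of the centromeric H3 variant and its loading factors, out of 8 listed, 0 were called. All 7 values were positive, as were those of 3147 of the 5823 tested genes. Their median was 0.95, against 0.08 over all tested genes, and it was 0.32 without aal1-pOE replicate 2. Levels were low, and with a filter of 10 CPM only 2 of the 7 were tested. The 7 included cnp3, the CENP-C homologue (1.14 ± 0.39), the chaperone gene scm3 (1.25 ± 0.49) and the CENP-T homologue cnp20 (1.19 ± 0.69). The summed level of these genes was 79.7, 166 and 81.8 CPM in aal1-pOE against 64.4, 51.6 and 68.2 CPM in evc, again highest in aal1-pOE replicate 2.

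Of 24 genes for enzymes that modify histones, 2 were called higher and 0 lower, against 1.36% and 4.64% of all tested genes. Their median was 0.33, which was 0.16 without aal1-pOE replicate 2. The gene hst4, for a sirtuin that deacetylates H3 at lysine 56, was at 53.5, 58.5 and 68.7 CPM in aal1-pOE against 29.9, 33.0 and 31.4 CPM in evc (log2 fold change 0.94 ± 0.21, adjusted p = 0.0320, edgeR). The gene clr4, for the methyltransferase of H3 lysine 9, was at 55.8, 79.7 and 53.8 CPM and 34.3, 27.8 and 32.6 CPM (1.0 ± 0.24, adjusted p = 0.0408). The groups did not overlap for either, and aal1-pOE lay wholly above evc in 18.4% of all tested genes. The call of hst4 was lost without any 1 of the libraries other than aal1-pOE replicate 2 (adjusted p from 0.0611 without evc replicate 1 to 0.178 without evc replicate 3). That of clr4 was lost without aal1-pOE replicate 1 (0.0771) or evc replicate 1 (0.0655), 2 (0.217) or 3 (0.178). With limma-voom both calls were lost (adjusted p = 0.0572 for hst4 and 0.0784 for clr4), and 0 of the 24 genes were called. The deacetylase gene hos2 had a log2 fold change of 1.31 ± 0.34 (adjusted p = 0.0528) and passed the threshold in 7 of 16 alternatives.

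Marker lists for dividing and meiotic cells were read beside the histones, since core histone transcripts are abundant in S phase. Of 13 tested S-phase genes out of 14 listed, 1 was called higher and 0 lower, against 1.36% and 4.64% of all tested genes. The median log2 fold change was 0.73, against 0.08 over all tested genes, and 12 of the 13 were positive. Without aal1-pOE replicate 2 the median was 0.34, against 0.02 over all genes. In that fit 3 of these genes were called higher, against 4.42% of all genes. The called gene was rad21, for the kleisin subunit of cohesin, at 49.0, 65.9 and 53.0 CPM in aal1-pOE against 26.5, 21.5 and 18.5 CPM in evc (1.33 ± 0.24, adjusted p = 0.0137, edgeR). Its call was lost without evc replicate 2 (0.0920) or 3 (0.0988). Next came cdc22, the large subunit of ribonucleotide reductase (0.98 ± 0.26, past the threshold in 8 of 16 alternatives), and the cohesin gene psm3 (1.65 ± 0.47). The summed level of the S-phase list was 1031, 941 and 1114 CPM in aal1-pOE against 943, 835 and 797 CPM in evc, so that the groups overlapped by aal1-pOE replicate 2 alone, and the part of these genes in the histone values was not tested.

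Of 12 genes of mitosis and septation, 0 were called, against 4.64% of all tested genes called lower and 1.36% higher. Their median was 0.52, which was 0.15 without aal1-pOE replicate 2 and -0.016 without that library and evc replicate 1 together. The ring protein gene cdc15 was at 71.5 CPM in aal1-pOE replicate 2 against 4.89 to 12.6 CPM in the other libraries (2.39 ± 0.71), mid1 had a value of 0.55 ± 0.24 and slp1 of 0.48 ± 0.22. The summed level of this list was 527, 823 and 541 CPM in aal1-pOE against 552, 584 and 576 CPM in evc, so that only aal1-pOE replicate 2 exceeded the evc range. Of 10 tested meiosis and sporulation genes out of 11 listed, 1 was called lower and 0 higher, against 4.64% and 1.36% of all genes. Their median was 0.10. That median was negative without aal1-pOE replicate 1 (-0.089) or 3 (-0.039) or evc replicate 3 (-0.18) and positive without evc replicate 1 (0.20) or 2 (0.21) or aal1-pOE replicate 2 (0.13). The called gene was ste11, the transcription factor that starts mating and meiosis, at 252, 331 and 229 CPM in aal1-pOE against 588, 830 and 975 CPM in evc (-1.56 ± 0.31, adjusted p = 0.0190, edgeR). That call was lost without aal1-pOE replicate 1 (0.0799) or 3 (0.0523) or evc replicate 2 (0.111) or 3 (0.127), and with library totals, where the log2 fold change was -0.77 (0.122). The cohesin gene rec8 and the linear-element gene rec10 had values of 1.42 ± 0.48 and 1.77 ± 0.72. The summed level of the meiosis list was 1006, 640 and 1306 CPM in aal1-pOE against 1536, 1497 and 1671 CPM in evc. These sums include ste11, which is a large part of them in evc, and 5 of the 10 genes had positive log2 fold changes.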

How the data were processed

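Total RNA was purified on columns with DNase I digestion, freed of rRNA and made into strand-specific, molecularly indexed libraries for sequencing as 50-bp read pairs. Reads, per the submitters' processing notes, were checked with FastQC 0.11.2, aligned with STAR 2.6.1a and counted per gene with HTSeq 0.12.3, and edgeR 3.46.0 and limma 3.46.0 are named. The authors moved 8 bases of index to the read names and had STAR clip 9 further bases, which leaves 33. Collapsing of duplicates and the genome build are not given in the sources used here. The deposited values are whole-number counts per gene, not normalised and not pooled. All library columns were used, 0 rows named no gene, and 0 columns were left unmapped. HTSeq by default skips reads with several alignments.

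Counts were refitted with edgeR 4.0.16 (limma 3.58.1, DESeq2 1.42.0, R 4.3.3) with strain as the only factor and evc as reference. The 5823 genes that exceeded 1 CPM in 3 or more libraries were tested, TMM factors were applied, and p-values adjusted by Benjamini-Hochberg over all tested genes, with a call at 0.05. Standard errors (SE) were taken as the size of the log2 fold change divided by the root of its F statistic, and 95% intervals use the degrees of freedom of the test. TMM CPM divide counts by library totals times the TMM factor. The fit was tested on simulated data, drawn for each gene on its own with the spread typical of its level. It recovered 33 of 100 genes set to a log2 fold change of 1 in size and 93 of 100 set to 2. Of 5574 genes left unchanged there, 7 were called. No simulated library stood apart as aal1-pOE replicate 2 did, so these rates may not hold for the real libraries. The log2 fold changes of the 10 members ran from -0.59 to 0.86 in the main fit. Shares within a class were compared by exact permutation tests over libraries, whose smallest two-sided p is 0.1. Replicate pairs within a group differed by 5.11 to 296 chi-square per degree of freedom over tested genes, more than sampling noise. The edgeR p-values weigh the difference between the groups against the spread between these cultures. Those of the shares rank the difference among all relabellings of the libraries. Of the table's identifiers, 6805 of 6952 matched RefSeq (ASM294v3), which supplied names, coordinates and sequences. The promoter of 1 gene pair is not reported here. These coordinates are not those of the authors' annotation. Gene lengths are annotated lengths in ASM294v3.

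The members, gene lists and tests were chosen with earlier results of these data known. Named were the 10 members, in each list every called gene and up to 3 with the smallest p, and the 5 genes whose log2 TMM CPM correlated best with the core histone mean. Genes, the hht1 and hhf3 shares and the pair ratios that were added after their values were seen are marked as such. Alternatives were other scalings, filters and tests, a replicate block, and left-out libraries.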

Additional observations from a re-analysis of the deposited data

How the results depend on the processing

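The counts of called genes moved with the processing, while most histone genes stayed uncalled. Over all genes, 270 were called lower and 79 higher. These counts were 154 and 517 with library totals, 472 and 397 with the edgeR likelihood ratio test, and 512 and 393 with the DESeq2 Wald test. With limma-voom 19 genes were higher. When each library was left out in turn, 81 to 518 genes were lower and 1 to 252 higher, and with aal1-pOE replicate 2 and evc replicate 1 both left out 1131 were lower and 1085 higher. Members called lower were 0 in each of these settings but 1 in the last, and 0 when any single library was left out. Members called higher were 2 with library totals, 0 to 1 when a single library was left out, with the 1 arising without aal1-pOE replicate 2, 3 without both libraries, and 0 otherwise. With library totals the log2 fold changes of hht3, hhf1 and hhf2 turned positive, at 0.279, 0.463 and 0.0437, because that scale raises the median of all genes. That of pcf2, with a single library left out, ranged from -0.058 without aal1-pOE replicate 2 to 2.26 without aal1-pOE replicate 3. It was -0.291 without both libraries and 2.84 with library totals. The cause of the other changes was not tested. In no alternative did any of the 4 shares change direction. With each library left out in turn, the difference ranged from -7.01 to -2.56 percentage points for hta2, from 2.33 to 4.27 for pht1, from -10.5 to -5.30 for hht2 and from -15.3 to -2.06 for hhf2.

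The replicate numbers were not treated as pairs. Deviations of same-numbered libraries from their group means correlated at 0.0326, 0.0097 and 0.0065, and a replicate block gave 383 genes lower and 247 higher with 0 members called. With pairs by replicate number, an exact sign-flip permutation test of the 4 shares gave p of 0.5 for hta2, 0.5 for pht1, 0.25 for hht2 and 0.25 for hhf2, for differences that pairing leaves as they were. Counts were fewest for pht1 and hhf3, with 42 and 120 in their lowest libraries. The SE did not follow the counts alone, at 0.34 for pht1 and 0.37 for the abundant hht2.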
